A study of Mus musculus with 121 samples.

Results

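Striatum (STR) was compared with prefrontal cortex (PFC) in untreated wild-type mice of 2 months, to describe how gene expression differs between these regions before any change in Gdnf. The libraries were chosen by their labels alone: wild-type mice of the Nestin-Cre model, STR or PFC, without the PFC library of m4575, whose STR and substantia nigra libraries carry the genotype cKU/cKU while its PFC library is labelled wt/wt. This left 13 of 121 libraries, 6 of STR and 7 of PFC, from 8 mice, of which 5 mice gave both regions. All 8 mice had the genotype wt/wt in the strain GDNF cKU x Nestin-Cre on a 129Ola/ICR/C57bl6 mixed background, so they carried the Cre driver, which acts in neural precursors of the whole central nervous system, but no cKU allele (a Gdnf allele whose expression Cre raises). The mice were males, and each region was isolated from slices of the brain, so each library holds every cell type of its piece of tissue. The same regions were also available from wt/wt mice of the AAV-Cre model (strain GDNF cKU +AAV-Cre, same mixed background, aged 5 to 7 months, given bilateral striatal AAV-Cre at 3 to 5 months; 7 mice with both regions, 14 libraries) and from wt/cKU mice (HET) of the Nestin-Cre model (2 months, no treatment; 6 mice with both regions, 13 libraries). The assay was poly(A) RNA-seq, and the total count per library ran from 15.2 to 25.9 M in PFC and from 16.8 to 22.5 M in STR (M, counts in units of 1e6). Mice are written as m and the number in their labels. The labels give no preparation batch, so a batch that followed the region cannot be told apart from the region.

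The striatum is built mainly from GABA-releasing spiny projection neurons. These split into direct-pathway cells, which carry dopamine D1 receptors and make substance P and dynorphin, and indirect-pathway cells, which carry dopamine D2 and adenosine A2a receptors and make enkephalin. A sparse set of cholinergic and GABA interneurons completes the tissue. The prefrontal cortex is built mainly from layered glutamatergic pyramidal neurons that arise from the pallium, with GABA interneurons that migrate in from the subpallium, the same embryonic source that gives rise to striatal neurons.

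Of 14463 genes tested, 10024 (69.3%) differed between STR and PFC at an adjusted p under 0.1 in edgeR's quasi-likelihood test with the mouse as a block. The split was near even, with 4958 genes higher in STR (34.3%) and 5066 higher in PFC (35%). Most differences were small: 4761 of the called genes differed by less than 0.5 on the log2 scale, 3080 by 0.5 to 1 and 1528 by 1 to 2, while 409 fell between 2 and 3 and 246 reached 3 or more. The median absolute log2 difference was 0.53 among called genes and 0.36 among all genes tested, and the median signed difference of all genes was 0.01. A 4-fold difference together with the call was reached by 267 genes higher in STR (1.85%) and by 388 genes higher in PFC (2.68%). Of these 655 genes, chosen on the same libraries, 649 (99.1%) went the same way in all 5 mice with both regions, against 61.8% of all genes tested, and for 602 (91.9%) the ranges of the regions did not overlap, against 35.3% of all. The 267 genes summed to a mean of 31806 cpm in STR (cpm, counts per library size of 1e6) and 3735 cpm in PFC, and the 388 genes to 22703 cpm in PFC and 3526 cpm in STR. Long non-coding RNAs made up 9.36% of the genes at least 4-fold higher in STR, 3.87% of those at least 4-fold higher in PFC and 3.40% of all genes tested.

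**Figure D1:**
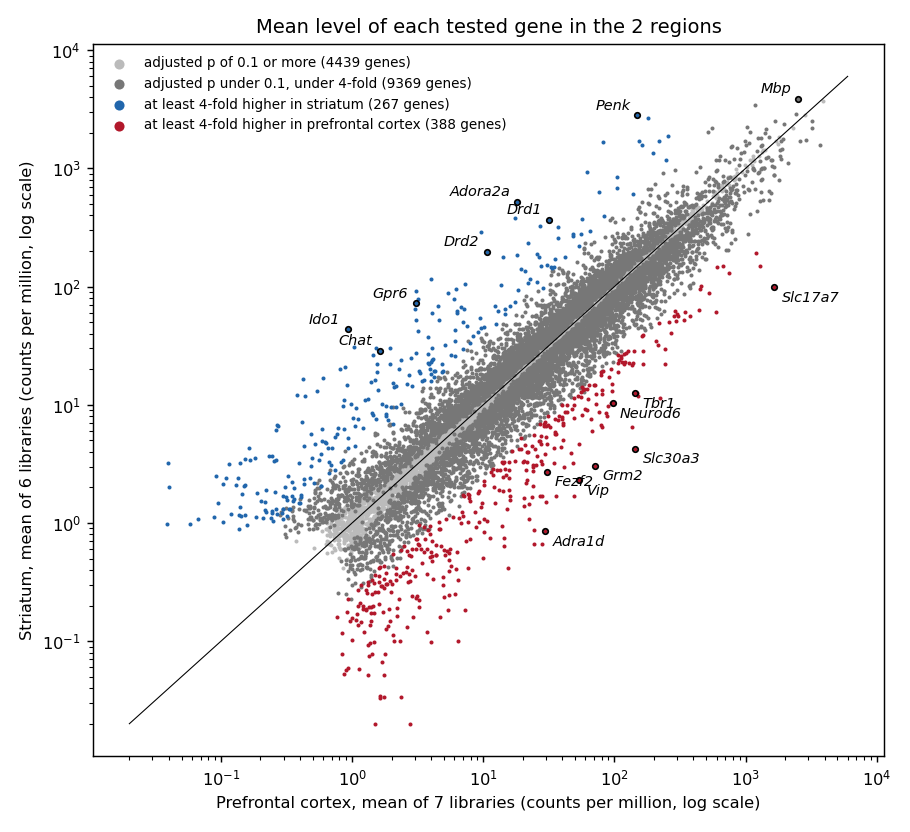
Mean level of each of 14463 tested genes in PFC (x axis, mean of 7 libraries) and STR (y axis, mean of 6 libraries), in cpm on log scales, with means under 0.02 drawn at 0.02. Blue points are the 267 genes at least 4-fold higher in STR and red points the 388 genes at least 4-fold higher in PFC; the black line marks equal levels, and most genes lie close to it.

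The marker genes went with the region labels. Ppp1r1b (Entrez 19049, chr11:98348406-98357796, plus strand, mm10), which encodes DARPP-32, the dopamine-regulated phosphatase inhibitor of spiny projection neurons, had a lowest, median and highest level of 2014, 2773 and 3240.4 cpm in STR and of 128, 168 and 286 cpm in PFC. The groups did not overlap, and the means of 2688 ± 455 cpm (SD, n = 6) and 179.7 ± 53.7 cpm (SD, n = 7) gave a log2 difference of 3.84 ± 0.11 (SE, adjusted p = 1.04e-09). Neurod6 (Entrez 11922, chr6:55677819-55681263, minus strand), a transcription factor of cortical excitatory neurons, stood at 73.2, 96.6 and 131 cpm in PFC against 0.298, 5.38 and 27.3 cpm in STR. Its log2 difference was -3.51 ± 0.45 (SE, adjusted p = 4.09e-05), lower in STR in 5 of 5 mice. Ppp1r1b overlaps 1700003D09Rik on the opposite strand, and the strand setting of the counting is not stated, so its level is uncertain to that extent; the same holds for Gnal, Chrm4 and Syt6 below, which overlap other genes of the table.

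Several libraries stood apart from the others of their region. The STR libraries of m4326 and m4609 held the highest levels of some cortical excitatory markers and of the summed deep-layer genes. The deep-layer sum was itself higher in STR, at a mean of 776 cpm against 521 cpm in PFC. Its most abundant member in STR was Syt6, a gene higher in STR than in PFC. Pallial transcription factors summed to 122 cpm in m4326 and 115 cpm in m4609, and to 40 to 69.7 cpm in the other STR libraries. The cortical excitatory sum in STR was 4834 cpm in m4326, 4031 cpm in m4394, 4017 cpm in m4545 and 3917 cpm in m4609. In STR its most abundant member was Nrgn, a gene higher in STR than in PFC. The upper-layer sum was lowest in m4326, at 375 cpm, and highest in m4609, at 534 cpm. Slc17a7, the vesicular glutamate transporter of cortical neurons, was at 219 and 215 cpm in the STR libraries of m4326 and m4609. It was at 23.6, 60.3 and 65 cpm in those of m4394, m4612 and m4529, and at 6.62 cpm in that of m4545. Tbr1, a deep-layer transcription factor, was at 29.3 and 27 cpm in the same pair and at 0.835 cpm in the STR library of m4545. Without that pair of libraries and without the mouse block, an alternative chosen after seeing the data, Neurod6 differed by -4.91, Slc17a7 by -5.39 and Tbr1 by -4.88 on the log2 scale, against -3.51, -4.27 and -3.63 with them in the blocked fit, and the genes at least 4-fold higher in PFC numbered 449 while those at least 4-fold higher in STR numbered 246. On the PFC side, the library of m4394 held the highest levels of Drd2 and Ppp1r1b. Its Drd2 level of 19.5 cpm was followed by 11.3 cpm in m4529, and its Ppp1r1b level of 286 cpm by 197 cpm. It also held the highest sum of genes listed for spiny projection neurons as a whole, 4487 cpm, followed by 3927 cpm in m4529. The same held for the indirect-pathway sum (648 and 636 cpm) and the dopamine sum (4939 and 4440 cpm). The sums of direct-pathway and cholinergic genes were not highest in m4394. PFC libraries also varied in olfactory bulb markers, which are described with the neighbouring tissues. In bulk tissue, fewer cells of a type and less RNA per cell cannot be told apart, so a level in the other region may come from cells carried over at dissection or from low expression there, and their parts were not tested.

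**Figure D2:**
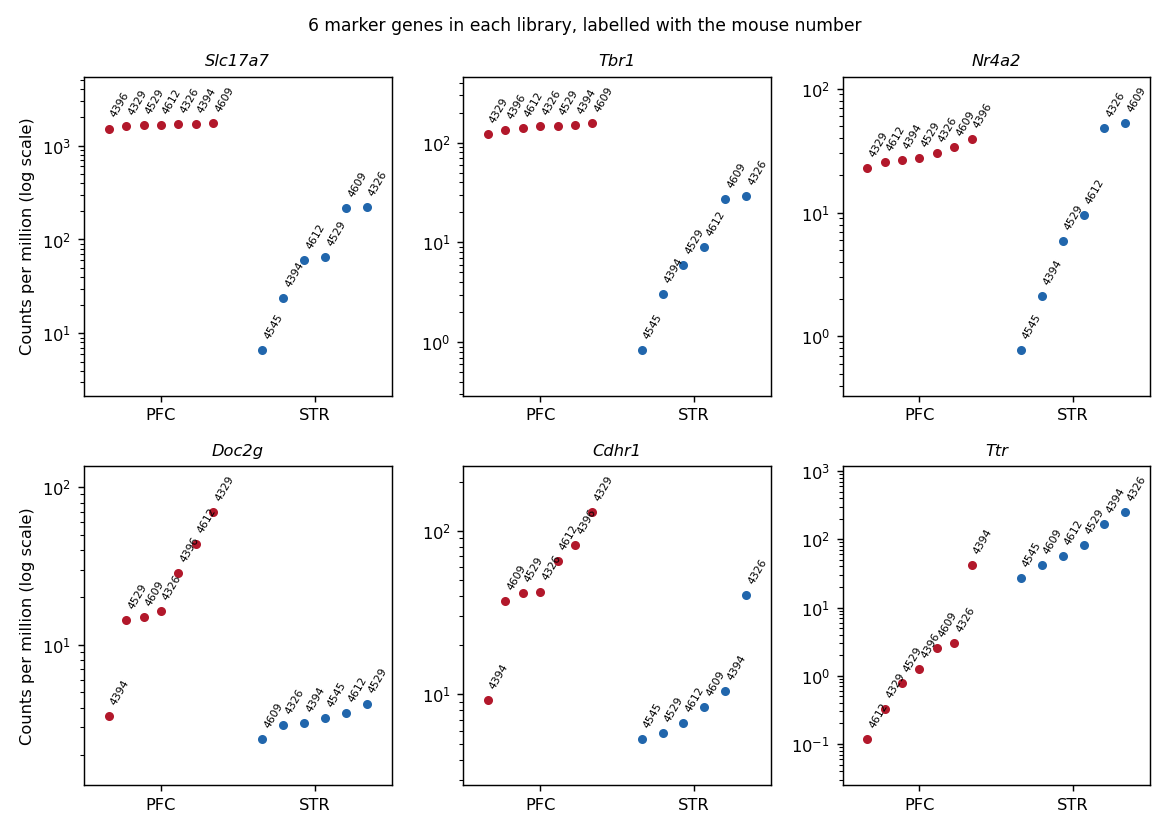
Levels of 6 marker genes in each library of PFC (red) and STR (blue), in cpm on log scales, with each point labelled by its mouse number and ordered by level within its region. Slc17a7, Tbr1 and Nr4a2 were highest among STR libraries in m4326 and m4609, Doc2g and Cdhr1 were highest among PFC libraries in m4329, and Ttr in PFC reached 42.5 cpm in m4394.

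All 24 genes listed for spiny projection neurons as a whole were higher in STR, 14 of them at least 4-fold. This stands beside 34.3% of all genes tested higher in STR and 1.85% at least 4-fold higher. The median log2 difference was 2.71 beside 0.01 for all genes tested. The summed level of the 24 genes was 22722 ± 2151 cpm (SD, n = 6) in STR and 3747 ± 411 cpm (SD, n = 7) in PFC, where Arpp21 was the most abundant member. Rgs9, which speeds the shut-off of D2 receptor signalling, stood at 849, 902 and 1079 cpm (lowest, median and highest) in STR and at 39.7, 63.5 and 90.2 cpm in PFC, a log2 difference of 3.91 ± 0.17 (SE, adjusted p = 8.15e-09). Gnal, the G protein alpha subunit that couples D1 receptors to adenylyl cyclase, was at 973 ± 76.8 cpm in STR and 289.8 ± 36.9 cpm in PFC (log2 difference 1.71 ± 0.08), Gng7, its gamma subunit, at 1695 ± 207 and 217 ± 27.5 cpm (2.94 ± 0.09), and Adcy5, the cyclase itself, at 1356 ± 198 and 197 ± 23.3 cpm (2.73 ± 0.12). Pde10a, which breaks cyclic nucleotides down, was 10.4-fold higher in STR. Among transcription factors of these neurons, Foxp1 was 3.84-fold and Bcl11b 4.68-fold higher in STR. Bcl11b and Foxp1 also mark cortical layers, and their PFC means of 82.8 ± 4.46 and 95.6 ± 12.2 cpm (SD, n = 7) were higher, as a share of STR, than that of Ppp1r1b.

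Most direct-pathway and indirect-pathway genes were higher in STR, against 34.3% of all genes tested, while 35% of all were higher in PFC. Of 10 direct-pathway genes, 8 were higher in STR, 1 was higher in PFC and Eya1 was not called, with a list median of 2.14. Drd1, the D1 receptor, ranged from 338 to 425 cpm around a median of 359 cpm in STR and from 21.2 to 44.2 cpm around 31 cpm in PFC, a log2 difference of 3.52 ± 0.13 (SE, adjusted p = 4.18e-09). Tac1, the substance P precursor, was 8.45-fold higher in STR, Pdyn, the dynorphin precursor, 3.08-fold, and Isl1, a transcription factor needed for direct-pathway identity, 18.8-fold. Of 10 indirect-pathway genes, 7 were higher in STR, Adk and Grik3 were higher in PFC and Ptprm was not called, with a median of 2.86. Drd2, the D2 receptor, ranged from 172 to 218 cpm around a median of 203 cpm in STR and from 6.07 to 19.5 cpm around 9.95 cpm in PFC, so the groups were far apart (log2 difference 4.17 ± 0.18, adjusted p = 9.35e-09). Slc35d3, a direct-pathway marker, was 11.7-fold higher, and Sp9 and Gpr52, of the indirect pathway, 6.23-fold and 8.5-fold, though Gpr52 lies within Rabgap1l on the same strand and is uncertain for that reason. Adora2a, the adenosine A2a receptor, was 27.3-fold higher in STR, Gpr6, an orphan receptor of the same cells, 21.8-fold, and Penk, the enkephalin precursor, 18.2-fold. Per kilobase of transcript, Penk was the higher of the opioid precursors in STR, at 1759.8 RPKM (cpm per kilobase), with Tac1 at 262 and Pdyn at 51.3 RPKM; Drd2 stood at 127 and Drd1 at 103 RPKM.

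Of 10 genes listed for the striosome and matrix compartments of the striatum, 5 were higher in STR, 1 was higher in PFC and 4 were not called, beside 34.3% of all genes tested higher in STR and 35% higher in PFC, and the median was 0.20. Only Id4 of this list passed 4-fold.

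Cholinergic interneuron genes showed the highest median of all 39 lists, 4.09. Of 8 tested genes 7 were higher in STR, all at least 4-fold, while Chrm2, the M2 receptor, was higher in PFC and Gbx2 was not tested. Among all genes tested, 34.3% were higher in STR, 1.85% by at least 4-fold, and 35% were higher in PFC. Chat, the acetylcholine-synthesising enzyme, stood at 25.4, 29.1 and 32.4 cpm (lowest, median and highest) in STR and at 0.9, 1.66 and 2.6 cpm in PFC, a log2 difference of 4.24 ± 0.17 (SE, adjusted p = 6.45e-09). Slc5a7, the choline transporter that feeds it, was 16.6-fold higher in STR, and Lhx8, the transcription factor that specifies these cells, 28-fold. Slc17a8, the vesicular glutamate transporter that these neurons share with some cortical cells, was 4.02-fold higher and Tacr1, the substance P receptor, 7.74-fold higher. Slc18a3, the vesicular acetylcholine transporter, was 17.5-fold higher, but it lies inside the Chat locus on the same strand (chr14:32462437-32464850 within chr14:32408203-32465909, minus strand), so reads of the pair may have been shared.

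Of 18 GABA interneuron genes, 3 were higher in STR, 11 were higher in PFC and 4 were not called, beside 34.3% of all genes tested higher in STR and 35% higher in PFC, with a median of -0.68. Vip, a peptide of cortical disinhibitory interneurons, had a lowest, median and highest level of 39.9, 54.9 and 62.7 cpm in PFC and of 0.298, 2.31 and 3.97 cpm in STR (log2 difference -4.41 ± 0.18, adjusted p = 6.46e-09). Cck, a peptide of cortical interneurons and pyramidal cells, had means of 243 ± 24.7 cpm in PFC and 29.7 ± 24.2 cpm in STR. Without the STR libraries of m4326 and m4609 and without the block, Vip differed by -5.10 and Cck by -3.87, against -4.41 and -3.10. Sst, the peptide of another interneuron class, was 1.53-fold higher in STR, at 239 ± 22.5 against 155 ± 20.2 cpm. Npy, which marks a class of striatal interneurons that also makes Sst, was at 76.6 ± 8.82 cpm in STR and 74 ± 9.73 cpm in PFC, a log2 difference of 0.03 ± 0.11 (adjusted p = 0.837) that was positive in 2 of 5 mice. Calb2 was 2.39-fold higher in PFC, where its level ran from 15.4 cpm in m4394 to 90.1 cpm in m4329. The groups overlapped, and in m4394 STR was the higher, at 20.6 cpm. Without the block the log2 difference of Calb2 was -1.85, against -1.25. The PFC libraries highest for Calb2, m4329, m4396 and m4612, were also the highest for the olfactory bulb gene Doc2g.

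**Figure D3:**
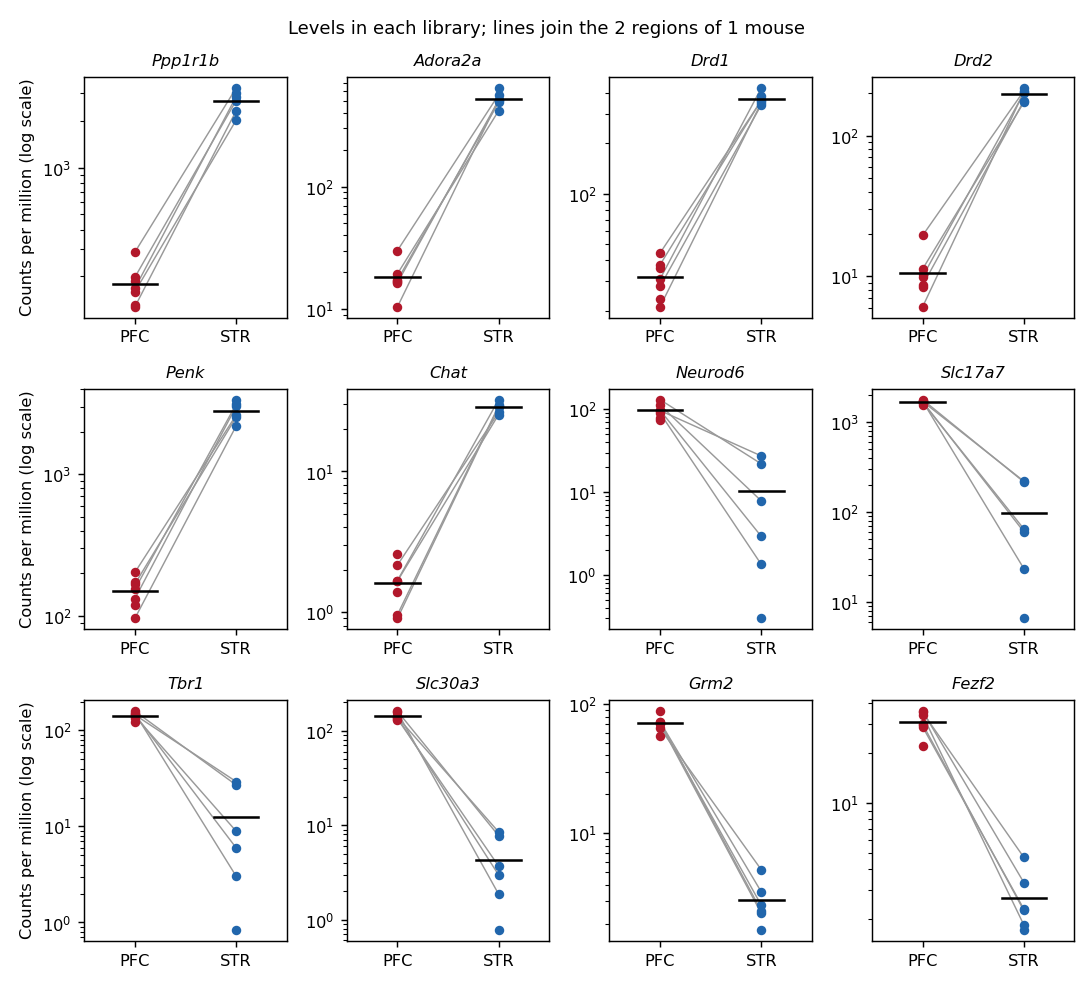
Levels of 12 genes in each library of PFC (red, n = 7) and STR (blue, n = 6), in cpm on log scales, with black bars at the mean and grey lines joining the regions of the 5 mice that gave both. The cortical genes Neurod6, Slc17a7 and Tbr1 were spread over more than 10-fold among STR libraries.

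Of 17 genes listed for cortical excitatory neurons, 14 were higher in PFC, 10 of them at least 4-fold, with a median of -3.25. The other 3, Camkv, Camk4 and Nrgn, were higher in STR, and these calcium-calmodulin genes are known in both tissues. For all genes tested, the shares were 35% higher in PFC, 2.68% by at least 4-fold, and 34.3% higher in STR. Slc17a7 stood at 1522, 1670.0 and 1759 cpm (lowest, median and highest) in PFC and at 6.62, 62.6 and 219 cpm in STR, a log2 difference of -4.27 ± 0.42 (SE, adjusted p = 5.16e-06), and its STR mean was 5.95% of its PFC mean. Slc30a3, which loads zinc into glutamate vesicles, was 31.4-fold higher in PFC, at 144 ± 11.7 against 4.24 ± 3.15 cpm. Emx1 was 14-fold and Neurod2 11.2-fold higher. Without the STR libraries of m4326 and m4609 and without the block, the log2 difference was -4.62 for Emx1, -4.70 for Neurod2 and -5.91 for Slc30a3, and by limma-voom it was -4.35 for Emx1 and -4.12 for Neurod2. In STR, m4326 and m4609 were the highest for Neurod2, as they were for Slc17a7.

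Of 11 upper-layer genes, 7 were higher in PFC and Cux1 and Wfs1 were higher in STR, beside 35% and 34.3% of all genes tested, with a median of -0.52. Cux2 was 6.86-fold and Rasgrf2 6.02-fold higher in PFC. Of 15 tested deep-layer genes, 8 were higher in PFC and 5 higher in STR, with a median of -0.70. Fezf2, the factor that specifies subcerebral projection neurons, stood at 22, 29.7 and 35.6 cpm in PFC and at 1.73, 2.29 and 4.72 cpm in STR (log2 difference -3.52 ± 0.15, adjusted p = 8.80e-09). In the other direction, Foxp2 was 5.11-fold higher in STR, at 93.1 ± 11.6 against 18.5 ± 2.1 cpm, and Syt6 4.39-fold higher, at 219 ± 16 against 53.4 ± 6.32 cpm; both mark corticothalamic cells in cortex and are also known in spiny projection neurons. Nr4a2, a marker of the deepest cortical layer and of the claustrum, was not called (log2 difference -0.94 ± 0.50, adjusted p = 0.124). Its STR level was 48.1 and 53.2 cpm in m4326 and m4609, above every PFC library, and 0.775 to 9.49 cpm in the other 4 mice. Without m4326 the difference was -1.44 (adjusted p = 0.027) and without m4609 it was -1.41 (adjusted p = 0.0454). It was -2.64 without both STR libraries and the block (adjusted p = 4.16e-05), -1.67 by limma-voom (adjusted p = 0.0162) and -0.93 without the filter on low counts (adjusted p = 0.0783). Over all alternatives the adjusted p of Nr4a2 ran from 8.90e-16 to 0.569. The lowest value came from the likelihood ratio test, at the same difference of -0.94 as the main fit.

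Transcription factors of the pallium and subpallium separated the regions. All 11 tested pallial factors were higher in PFC, with a median of -3.51 and a summed level of 486 ± 45.4 cpm in PFC and 74.6 ± 35.4 cpm in STR; Neurog2 was not tested. Of 21 tested subpallial factors, 15 were higher in STR, 2 were higher in PFC and 4 were not called, with a median of 2.43. Both counts stand beside 34.3% of all genes tested higher in STR and 35% higher in PFC. Six3, a factor of the striatal progenitor zone, stood at 59.2, 63.3 and 72.8 cpm in STR and at 1.23, 3.32 and 4.09 cpm in PFC (20.5-fold, adjusted p = 6.82e-09). Zfp503 was 14.2-fold higher in STR and Meis2 2.86-fold. Dlx6 was 7.56-fold higher in STR while Dlx1, from another Dlx pair, was 2.85-fold higher in PFC, at 40.3 ± 13.3 against 11.1 ± 4.01 cpm. In PFC, Dlx1 was highest in m4329, m4612 and m4396, at 67.5, 45.2 and 41.3 cpm. These libraries were also the highest for the olfactory bulb gene Doc2g. Both Dlx genes overlap an antisense gene of the table, and the strand setting of the counting is not stated, so reads of each pair may have been shared. Sp8, a factor of olfactory bulb and cortical interneurons, was the other member higher in PFC.

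By size alone, the 12 genes with the largest differences in STR, among those with a mean of at least 10 cpm, included Ido1, Lhx8, Lrrc10b, Sh3rf2, Cd4, Adora2a, Ptpn7, Ttr, Gpx6, Nexn and Clec12a. Ido1, which starts tryptophan breakdown, stood at 33, 40.3 and 56.3 cpm in STR against 0.394, 0.895 and 2.07 cpm in PFC, a log2 difference of 5.38 ± 0.18 (SE, adjusted p = 2.24e-09). Sh3rf2, an E3 ligase scaffold, was 27.4-fold higher, Lrrc10b 27.5-fold and Nexn, an actin-binding protein, 24.8-fold. Cd4, best known as the helper T cell co-receptor, was at 116 ± 22.2 cpm in STR and 4 ± 2.24 cpm in PFC. Ptpn7, a phosphatase, was 26.6-fold and Clec12a, a lectin receptor, 23.5-fold higher. Gpx6, a glutathione peroxidase, was 26.3-fold higher with wide spread, from 12.3 to 70.0 cpm in STR, and m4394 was the highest in both regions; without m4394 its log2 difference was 5.25, against 4.72. Ttr, the transthyretin of the choroid plexus, is described with the neighbouring tissues.

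The 12 genes with the largest differences in PFC were Adra1d, Igfn1, Hkdc1, Slc30a3, Fam19a1, Prdm8, Scube1, Grm2, Vip, Adcyap1, Nrn1 and Myoc. Adra1d, an alpha-1 adrenergic receptor, stood at 17.4, 30.5 and 39.1 cpm in PFC against 0.716, 0.89 and 0.927 cpm in STR, a log2 difference of -5.18 ± 0.13 (SE, adjusted p = 9.94e-10). Prdm8, a transcriptional repressor of upper-layer neurons, was 27.7-fold higher in PFC, Fam19a1, a secreted protein, 31.3-fold, and Hkdc1, a hexokinase-type enzyme, 32-fold, at 24.3 ± 1.27 against 0.662 ± 0.597 cpm. Igfn1 was 36.1-fold and Scube1 21.8-fold higher. Nrn1, a plasticity-related surface protein, was 19.7-fold higher, at 222 ± 31.9 against 11.5 ± 8.73 cpm. Myoc, a gene of meningeal and glial cells, was 19.6-fold higher, and its PFC libraries fell into 3 near 23 cpm (m4326, m4329 and m4609) and 4 between 5.72 and 9.88 cpm. Without the STR libraries of m4326 and m4609 and without the block, Igfn1 differed by -6.82, Hkdc1 by -6.28, Nrn1 by -5.07 and Scube1 by -4.96, against -5.18, -5.00, -4.30 and -4.44. By limma-voom Igfn1 differed by -6.05 and Hkdc1 by -5.70.

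**Figure D4:**
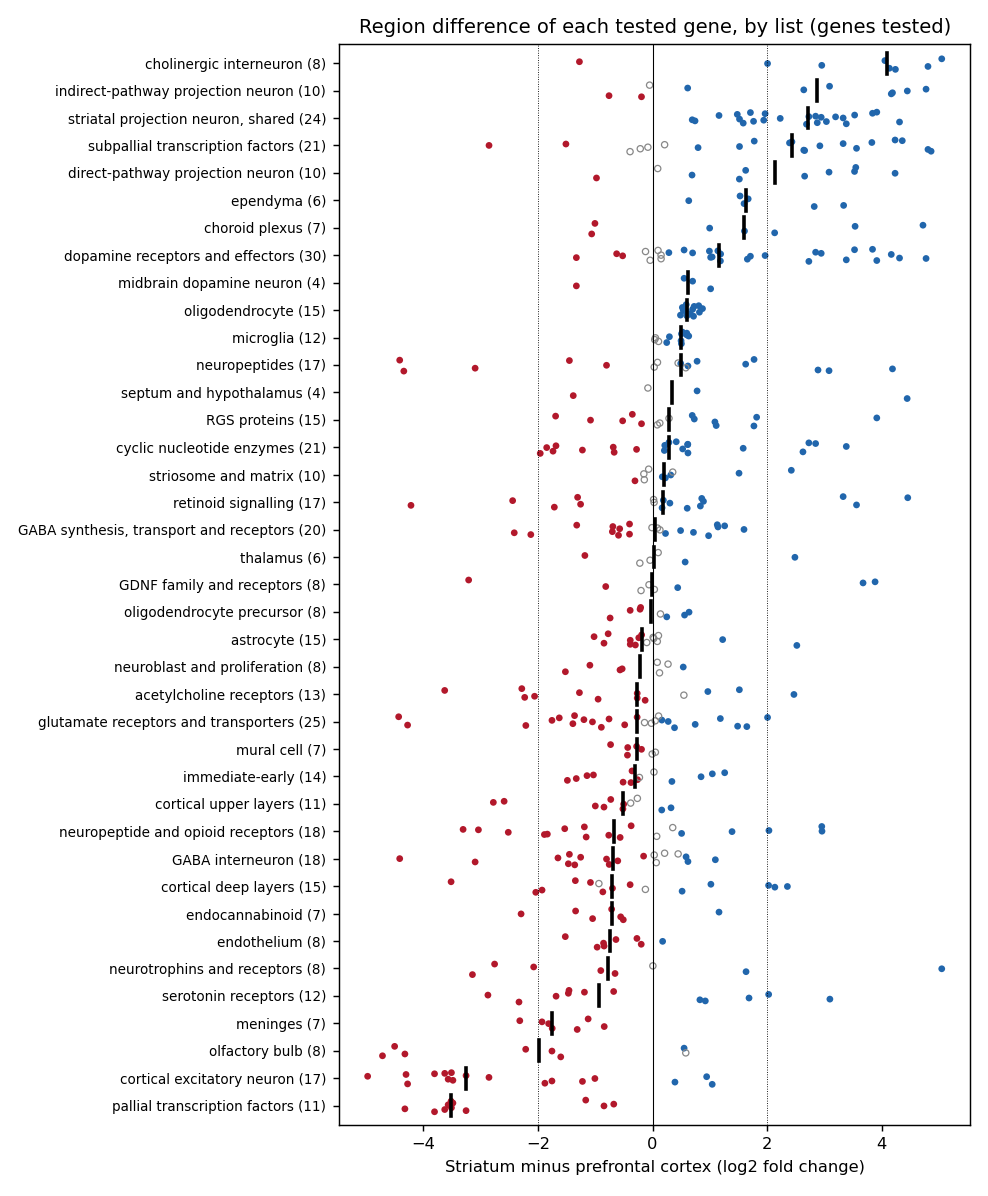
Log2 difference (STR minus PFC) of every tested gene in 39 lists, sorted by list median (black bars), with the number of genes tested in parentheses. Filled points passed an adjusted p under 0.1 (blue, higher in STR; red, higher in PFC), open points did not, and dotted lines mark 4-fold; the cholinergic list had the highest median and the pallial transcription factors the lowest.

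Of 30 tested dopamine receptors, effectors and synthesis enzymes, 22 were higher in STR, 3 were higher in PFC and 5 were not called, with a median of 1.16. The 3 higher in PFC were Adora1, Rgs7 and Slc6a3, the dopamine transporter, which is made in midbrain cell bodies. Th, the rate-limiting enzyme of dopamine synthesis, was called but unsteady: it was at 13 ± 1.92 cpm in STR and 14.2 ± 10.5 cpm in PFC, with a within-mouse log2 difference of 0.55 ± 0.25 (adjusted p = 0.0752) and a difference of -0.14 without the block. The call was lost without m4326 (0.54, adjusted p = 0.139), without m4394 (0.26, adjusted p = 0.158) and without m4609 (0.61, adjusted p = 0.114). It was also lost by DESeq2 (0.63, adjusted p = 0.158), by limma-voom (0.32, adjusted p = 0.442) and without the block (-0.14, adjusted p = 0.771), and over all alternatives the adjusted p of Th ran from 2.18e-05 to 0.841. The call was kept without the block and the PFC libraries of m4329, m4396 and m4612, the highest for Doc2g. Those libraries held the highest PFC sums of midbrain dopamine neuron genes, 45.3, 24.8 and 25.8 cpm, in which Th was the most abundant. Cyclic nucleotide enzymes all differed, 13 of 21 higher in STR and 8 higher in PFC, with a median of 0.29. Adcy5, Pde10a, Pde1b and Pde7b were at least 4-fold higher in STR, while Adcy1 and Adcy8, the calcium-stimulated cyclases, and Adcy2 were higher in PFC. Of 15 RGS genes, which switch off G proteins, 7 were higher in STR, 5 were higher in PFC and 3 were not called (34.3% and 35% of all genes tested were higher in STR and in PFC), and Rgs9 was the 1 member to pass 4-fold.

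Of 17 neuropeptide precursors, 8 were higher in STR, 5 were higher in PFC and 4 were not called, with a median of 0.49, beside 34.3% and 35% of all genes tested higher in STR and in PFC. The summed level was 3657 ± 495 cpm in STR, led by Penk, and 826 ± 43.1 cpm in PFC, led by Cck. Adcyap1, the precursor of PACAP, stood at 29, 32.9 and 47.7 cpm in PFC and at 1.07, 1.42 and 2.78 cpm in STR, 20.3-fold higher in PFC. Of 18 peptide receptors, 5 were higher in STR and 11 were higher in PFC, with a median of -0.66. Cckbr, the receptor for the cortical peptide Cck, was 8.22-fold higher in PFC, at 76.2 ± 9.08 against 8.68 ± 3.33 cpm, and Oprk1, the receptor for dynorphin, was 4.09-fold higher in STR, at 47.9 ± 8.87 against 12.6 ± 2.71 cpm.

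Of 25 glutamate receptor and transporter genes, 8 were higher in STR, 13 were higher in PFC and 4 were not called, with a median of -0.27, beside 34.3% and 35% of all genes tested higher in STR and in PFC. Grm2, the presynaptic metabotropic receptor of cortical terminals, stood at 57.1, 71 and 88 cpm in PFC and at 1.79, 2.65 and 5.24 cpm in STR (log2 difference -4.43 ± 0.16, adjusted p = 3.23e-09). Grm5, which couples to calcium release, was 2.27-fold and Grm4 2.8-fold higher in STR. Of 20 tested GABA genes, 8 were higher in STR, 9 were higher in PFC and 3 were not called, with a median of 0.04. The synthesising enzymes were higher in STR by modest factors, Gad1 1.64-fold (818 ± 70 against 517 ± 64.9 cpm) and Gad2 2.19-fold (463 ± 57.6 against 219 ± 18.4 cpm). Receptor subunits went in both directions: Gabra4 was 2.21-fold and Gabrd 2.39-fold higher in STR, the pair that forms extrasynaptic receptors, while Gabra3 was 4.36-fold and Gabbr2, a subunit of the metabotropic GABA receptor, 5.33-fold higher in PFC.

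Of 13 tested acetylcholine receptor genes, 3 were higher in STR and 9 were higher in PFC, with a median of -0.27. Over all genes tested, 34.3% were higher in STR, 35% were higher in PFC and 69.3% were called either way. Chrm4, the inhibitory M4 receptor of direct-pathway neurons, was 2.86-fold higher in STR, whereas Chrm3 was 4.69-fold and Chrna4, a nicotinic subunit, 4.17-fold higher in PFC. All 12 tested serotonin receptors differed, 5 higher in STR and 7 higher in PFC, with a median of -0.93. Htr1d was 8.54-fold and Htr2c 1.89-fold higher in STR, and Htr1a was 5.03-fold and Htr2a 3.21-fold higher in PFC. In the endocannabinoid list, Cnr1, the CB1 receptor, was the 1 gene higher in STR (2.23-fold, 593 ± 122 against 244 ± 21.8 cpm), and the 6 tested enzymes were all higher in PFC. Faah, which degrades anandamide, was 4.9-fold higher in PFC, at 115 ± 8.28 against 23.2 ± 3.62 cpm.

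Of 17 tested genes of retinoid signalling, 10 were higher in STR, 5 were higher in PFC and 2 were not called, beside 34.3% of all genes tested higher in STR and 35% higher in PFC, with a median of 0.19. Rarb, a retinoic acid receptor, stood at 169, 180.2 and 208 cpm in STR and at 12.3, 18.5 and 23.3 cpm in PFC (10-fold), and Rxrg, its partner, was 11.8-fold higher. Crabp1, a carrier of retinoic acid, was 21.9-fold higher. Synthesising enzymes went in both directions: Aldh1a2 was 5.43-fold higher in PFC, and Aldh1a3 was at 2.89 ± 0.71 cpm in PFC and 0.161 ± 0.195 cpm in STR, a log2 difference of -4.22 that became -5.52 without m4326. Aldh1a1 and Rdh10 were higher in STR.

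The gene that the cKU allele targets was itself regional. Gdnf (Entrez 14573, chr15:7810048-7837580, plus strand), the glial cell line-derived neurotrophic factor, stood at 3.72, 5.91 and 7.22 cpm in STR and at 0.205, 0.428 and 0.9 cpm in PFC. All STR libraries lay above all PFC libraries, and the log2 difference was 3.67 ± 0.31 (SE, adjusted p = 1.41e-06). Nrtn, its family member neurturin, was 14.7-fold higher in STR, at 2.4 ± 1.3 against 0.135 ± 0.159 cpm, with no count in 2 PFC libraries. Their receptors differed: Gfra1, the co-receptor for Gdnf, was 1.36-fold higher in STR, and Gfra2, the co-receptor for neurturin, was 9.25-fold higher in PFC, at 89.7 ± 12.6 against 9.76 ± 2.55 cpm. Ret, the shared signalling receptor, was 1.76-fold higher in PFC with overlapping groups, and its call was lost without the STR libraries of m4326 and m4609 (log2 difference -0.34, adjusted p = 0.102) and without the PFC libraries of m4329, m4396 and m4612 (-0.55, adjusted p = 0.118), in unblocked fits chosen after seeing the data; over all alternatives its adjusted p ran from 1.14e-06 to 0.118. Of 8 tested genes of the family, 3 were higher in STR, 2 were higher in PFC and 3 were not called, and among 8 neurotrophin genes, 2 were higher in STR, Ngfr among them, and 5 were higher in PFC, beside 34.3% of all genes tested higher in STR and 35% higher in PFC. Bdnf, which cortical neurons make and deliver to the striatum, stood at 22.3, 25.3 and 47.1 cpm in PFC and at 0.418, 1.43 and 12.1 cpm in STR, and m4326 and m4609 again held the highest STR levels. Without those libraries and the block the log2 difference of Bdnf was -4.82, against -3.14. Ntrk2, its receptor, was 1.57-fold higher in PFC.

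All 15 oligodendrocyte genes were higher in STR, with a median of 0.60, and Mbp, a main myelin protein, was 1.5-fold higher. Their summed level was 6829, 8679 and 13583 cpm (lowest, median and highest) in STR and 4976, 5629 and 7510.1 cpm in PFC, so the groups overlapped, and m4394 was the highest in both regions. Of 8 precursor genes, 3 were higher in STR and 4 were higher in PFC, beside 34.3% and 35% of all genes tested. Of 12 microglial genes, 9 were higher in STR and 3 were not called, with a median of 0.50, and C1qa, a complement subunit, was 1.55-fold higher. Of 15 astrocyte genes, 8 were higher in PFC, 2 were higher in STR and 5 were not called. Agt, higher in STR, was the 1 member to pass 4-fold. Gfap was 2.03-fold higher in PFC, at 149 ± 34.4 against 72.8 ± 18.8 cpm. Endothelial genes were higher in PFC in 7 of 8 cases and mural cell genes in 5 of 7, and Flt1, a vascular endothelial growth factor receptor, was 2.87-fold higher there.

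Markers of tissues that border the dissected pieces also moved with region. All 7 meningeal genes were higher in PFC, with a median of -1.75 and a summed level of 172 ± 51.7 cpm in PFC and 72.8 ± 28.2 cpm in STR, Igf2 being the most abundant. Col1a2, a fibrillar collagen chain, was 3.81-fold higher in PFC. All 6 ependymal genes were higher in STR, with a median of 1.63 and summed levels of 28.5 ± 10.5 and 10.9 ± 3.22 cpm. Of 7 choroid plexus genes, 5 were higher in STR and 2 were higher in PFC, beside 34.3% and 35% of all genes tested, and their sum in STR ran from 52.1 to 290.1 cpm around a median of 105 cpm, most of it Ttr. Ttr stood at 27.3, 69.9 and 251 cpm in STR and at 0.117, 1.27 and 42.5 cpm in PFC, where m4394 held the highest value and the next was 3.04 cpm, and the groups overlapped through that library. Its log2 difference was 4.72 ± 0.64 (SE, adjusted p = 6.93e-05) and became 6.14 without m4394, 3.82 without the block, 3.52 without the block and the STR libraries of m4326 and m4609, and 3.08 without the block and the PFC libraries of m4329, m4396 and m4612. Of 8 tested olfactory bulb genes, 6 were higher in PFC, Th was higher in STR and Trh was not called, with a median of -1.98. Their summed level in PFC was 36.2 cpm in m4394, 103 cpm at the median and 301 cpm in m4329, and Cdhr1, a mitral cell cadherin, was the most abundant, at 9.28 to 130.4 cpm. Doc2g, another bulb gene, ran from 3.56 to 69.7 cpm in PFC and from 2.52 to 4.23 cpm in STR. The part of carried-over bulb, choroid plexus or meninges in other results was not tested. Without the PFC libraries of m4329, m4396 and m4612, the highest for Doc2g, and without the block, 268 genes were at least 4-fold higher in STR and 367 at least 4-fold higher in PFC.

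Of 6 thalamic genes, 2 were higher in STR, Synpo2 by more than 4-fold, 1 was higher in PFC and 3 were not called, with sums of 70.3 ± 7.87 and 70.9 ± 3.58 cpm. Of all genes tested, 34.3% were higher in STR and 35% higher in PFC. Only 4 of 8 septal and hypothalamic genes and 4 of 8 midbrain dopamine neuron genes were tested, since Oxt, Hcrt, Pmch, Agrp, En1, Foxa2, Lmx1b and Pitx3 did not reach 1 cpm in 3 libraries. Of the 4 septal and hypothalamic genes tested, 2 were higher in STR, Avp by more than 4-fold, 1 was higher in PFC and Zic1 was not called. Avp was near the floor, at 0 to 0.121 cpm in PFC and 0.176 to 2.46 cpm in STR. It passed the filter through STR libraries alone, so its fold says little. Of the 4 midbrain genes 3 were higher in STR and Slc6a3 was higher in PFC. Of 8 neuroblast and proliferation genes, 4 were higher in PFC, 1 was higher in STR and 3 were not called. Of 14 immediate-early genes, which follow recent activity and handling, 4 were higher in STR, 8 were higher in PFC and 2 were not called, with a median of -0.31. Fos was 2.52-fold higher in PFC, where it ran from 9.56 to 59.9 cpm between mice, and Junb was 2.39-fold higher in STR.

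The same contrast in other mice gave the same direction for nearly all of the large differences. In wt/wt mice of the AAV-Cre model, 10030 of 14720 genes differed between STR and PFC (68.1%), and in HET mice of the Nestin-Cre model 9793 of 14546 (67.3%). Of the 267 genes at least 4-fold higher in STR at 2 months, 261 were called in the same direction in AAV-Cre wt/wt mice and 6 were not tested, and 262 were called in the same direction in HET mice. Of the 388 genes at least 4-fold higher in PFC, 374 were called in the same direction in AAV-Cre wt/wt mice, 13 were not tested and 1 was not called, with the same counts in HET mice. By the 4-fold rule in both, 166 genes were shared with AAV-Cre wt/wt mice on the STR side, 62.2% of the 267 and 70.9% of the 234 found there. On the PFC side 260 were shared, 67% of the 388 and 79.8% of the 326 found there. With HET mice, 220 were shared on the STR side (82.4% and 66.9%, in the same order) and 318 on the PFC side (82% and 81.1%). Over all calls, large and small, 73.2% of those higher in STR and 74.2% of those higher in PFC were called in the same direction in AAV-Cre wt/wt mice, and 86.8% and 84.6% in HET mice. The opposite call was made for 144 and 217 of them in AAV-Cre wt/wt mice and for 8 and 3 in HET mice. These mice differ from the wt/wt mice of 2 months in age, injection and model, or in carrying 1 cKU allele, and were other animals.

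The size of the region difference changed between the models for 4651 of 14877 genes (31.3%) in the test of the model by region interaction, fitted over wt/wt libraries of both models. Among the 655 genes with at least a 4-fold difference, 265 passed that test, 218 with a larger difference at 2 months and 47 with a larger difference in AAV-Cre mice. These genes were chosen for their difference at 2 months, and that choice alone favours a larger value there. Over all 14463 genes the change was positive for 2082 and negative for 2527 of those that passed, with a median of -0.01. For the 24 spiny projection neuron genes the median of the change was 0.48 on the log2 scale, and 14 passed, all larger at 2 months. Penk is an example: its PFC mean was 5.34% of its STR mean at 2 months and 14.7% in AAV-Cre mice (change in log2 difference 1.35, adjusted p = 0.0016). Neurod6 went the opposite way, with an STR mean that was 10.6% of its PFC mean at 2 months and 1.60% in AAV-Cre mice (change 2.41, adjusted p = 0.0132). Its STR level at 2 months was highest in m4326 and m4609, and without those STR libraries and the block its region difference was -4.91, against -3.51. The 15 oligodendrocyte genes had a median change of -0.47, and 14 passed, all with a smaller difference at 2 months. The 6 largest changes among called genes with a mean of at least 10 cpm in 1 group were Slc4a5 at -3.93, Nr4a2 at 3.18, F5 at -3.14, Folr1 at -3.03, Sostdc1 at -2.80 and 1500015O10Rik at -2.77. Apart from Nr4a2 these are genes known from the choroid plexus, and their level in STR of AAV-Cre mice varied widely, as Slc4a5 at 10.8 ± 20.5 cpm and Folr1 at 12.3 ± 19.4 cpm (SD, n = 7) show. At 2 months Slc4a5 stood near the floor, at 0.56 cpm in STR and 0.083 cpm in PFC, and was not tested in the main comparison. Folr1 was also low at 2 months, at 0.825 cpm in STR and 0.312 cpm in PFC. The calls of Slc4a5 and Folr1 were lost without m4394 (-1.61, adjusted p = 0.808, and -2.19, adjusted p = 0.341), those of Folr1 and Sostdc1 without m4612 (-2.93, adjusted p = 0.104, and -2.43, adjusted p = 0.115). Over all alternatives the adjusted p of Slc4a5 ran from 0.0377 to 0.808, that of Folr1 from 0.0438 to 0.600 and that of Sostdc1 from 0.0244 to 0.209. The F5 change was -2.57 by DESeq2 and -4.04 without the block, and its call was kept. The adjusted p of 1500015O10Rik ran from 0.0179 to 0.245, with the call lost by DESeq2 (-1.53, adjusted p = 0.245). The Nr4a2 change was 2.67 without m4326 (adjusted p = 0.0112) and 2.68 without m4609 (adjusted p = 0.00689), 2 mice with high STR levels of this gene, and over all alternatives its adjusted p ran from 3.71e-04 to 0.0112. Age, injection, model and any batch between the models cannot be told apart in this test.

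Promoter sequences are shown for 5 genes with at least a 4-fold difference whose start is in the RefSeq promoter table (GRCm38.p6, the assembly of mm10), which held 206 of the 267 genes at least 4-fold higher in STR and 280 of the 388 at least 4-fold higher in PFC. Each runs 5′ to 3′ on the strand of the gene from 250 bases before the start to 50 after it, and capitals mark matches to motifs searched on both strands. CAGATG, an E-box of the type NEUROD factors bind (CATCTG on the other strand), was in 15.0% of promoters of genes at least 4-fold higher in STR, 16.4% of those at least 4-fold higher in PFC and 11.5% of all 11452 promoters. The shares for TGACGTCA, the full cyclic AMP response element, were 1.94%, 0.714% and 3.24% in the same order. Those for a TATA box, written TATAAA, were 12.6%, 11.8% and 7.04%. Those for AGGTCA, a nuclear receptor half-site, were 11.2%, 13.2% and 11.8%. A match describes the letters only. The first promoter listed for each gene was searched. All 5 promoters shown hold a match, so they do not stand for these shares. From the STR side, Rgs9 (chr11:109298132-109298431, minus strand) holds TATAAA at position -195 and CAGATG at -161, Tac1 (chr6:7554811-7555110, plus strand) holds CAGATG at -173, and Gpr6 (chr10:41072241-41072540, minus strand) holds TGACGTCA at -78. From the PFC side, Neurod2 (chr11:98329596-98329895, minus strand) holds CAGATG at -118 and Prdm8 (chr5:98180619-98180918, plus strand) holds CATCTG at 22.
Rgs9: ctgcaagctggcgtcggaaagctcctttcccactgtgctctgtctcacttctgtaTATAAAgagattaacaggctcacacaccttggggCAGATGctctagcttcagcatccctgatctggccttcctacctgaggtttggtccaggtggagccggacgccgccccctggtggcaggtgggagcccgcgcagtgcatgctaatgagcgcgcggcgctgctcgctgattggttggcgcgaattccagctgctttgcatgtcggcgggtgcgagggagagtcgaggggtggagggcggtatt
Tac1: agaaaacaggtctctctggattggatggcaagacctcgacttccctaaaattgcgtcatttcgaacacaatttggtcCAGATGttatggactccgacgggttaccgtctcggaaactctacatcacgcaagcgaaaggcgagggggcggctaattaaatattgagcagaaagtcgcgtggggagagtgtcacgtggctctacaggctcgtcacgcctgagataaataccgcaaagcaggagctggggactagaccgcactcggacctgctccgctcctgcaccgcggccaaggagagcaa
Gpr6: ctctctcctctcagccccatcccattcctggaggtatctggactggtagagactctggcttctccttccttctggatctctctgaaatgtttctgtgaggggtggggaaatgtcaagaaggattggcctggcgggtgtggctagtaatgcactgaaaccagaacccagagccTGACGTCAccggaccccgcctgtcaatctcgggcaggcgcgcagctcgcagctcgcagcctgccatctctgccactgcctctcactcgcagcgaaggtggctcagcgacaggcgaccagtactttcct
Neurod2: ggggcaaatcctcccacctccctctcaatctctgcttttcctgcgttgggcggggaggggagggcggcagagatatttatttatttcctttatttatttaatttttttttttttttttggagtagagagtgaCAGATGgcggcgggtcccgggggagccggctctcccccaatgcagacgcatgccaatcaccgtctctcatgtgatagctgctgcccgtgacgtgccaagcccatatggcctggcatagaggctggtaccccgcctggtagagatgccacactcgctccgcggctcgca
Prdm8: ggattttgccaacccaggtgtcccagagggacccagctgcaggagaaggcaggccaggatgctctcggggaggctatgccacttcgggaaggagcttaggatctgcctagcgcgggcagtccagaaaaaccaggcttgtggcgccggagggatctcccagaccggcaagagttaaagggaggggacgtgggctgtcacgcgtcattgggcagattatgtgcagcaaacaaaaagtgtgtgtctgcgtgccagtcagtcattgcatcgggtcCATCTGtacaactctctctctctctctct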

How the data were processed

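Per the labels, RNA of each brain region was made into stranded poly(A) libraries and sequenced as single-end reads. The authors counted reads per gene with featureCounts 1.5.1 after alignment by STAR 2.5.2b to mm10 (bcl2fastq 2.20.0.422 for base calls); the values are raw counts as deposited, 1 column per library and 24412 genes, and the strand setting is not stated. Depth per library was 15.2 to 25.9 M counts in PFC and 16.8 to 22.5 M in STR. It was 11.2 to 21.8 M in AAV-Cre wt/wt and 14.5 to 26.8 M in HET mice. Before scaling by TMM, 1 cpm was thus at least 15.2 counts in the main comparison. The levels in cpm use totals scaled by TMM factors, which ran from 0.966 to 1.04.

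Of all genes, 14463 reached 1 cpm in 3 or more of the 13 libraries and were kept, the filter given in the methods of the study. Counts were scaled by TMM and tested with edgeR 4.0.16 (R 4.3.3; quasi-likelihood F test, trended dispersion) with the mouse as a block, so that 3 mice with 1 region enter scaling and dispersion but not the region difference. P values were adjusted by Benjamini-Hochberg, genes were called under 0.1, and SE is the log2 difference divided by the square root of F. For the pairing, the mean of each gene within its region was subtracted from the log2 levels. The correlation of these deviations between regions ran from 0.23 to 0.44 within 1 mouse and from -0.26 to 0.19 between different mice. The same test was run in AAV-Cre wt/wt and HET mice, and a model by region interaction over both wt/wt sets. The test was also checked on simulated data.

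Genes named are those of 39 lists of cell types, structures and signalling systems, the 12 with the largest difference in each direction (called, mean of at least 10 cpm in the higher region, same direction in all 5 mice, symbol not Gm or Rik), and the 6 with the largest interaction. Not every gene that this rule allows is named. Members and lists were chosen with earlier results of these data known. Alternatives were DESeq2 1.42.0, limma-voom (limma 3.58.1), DESeq2 size factors, a likelihood ratio test, no filter, a stricter threshold of 0.05, a test against 4-fold, no block, only paired libraries, the library of m4575 added, and each of the 5 mice with both regions left out in turn; no AAV-Cre mouse and no mouse with 1 region was left out. Fits without the STR libraries of m4326 and m4609, or without the PFC libraries of m4329, m4396 and m4612, were added after seeing the data. Promoters came from RefSeq (GRCm38.p6), matched for 11452 of 14463 genes, from 250 bases before the start to 50 after it. Figures were drawn with matplotlib 3.10.9 in Python 3.11.15.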

Additional observations from a re-analysis of the deposited data

Results flagged for a closer look

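In 292 groups of 6 or 7 libraries (107 genes given a region value in the text and 39 list sums in each region), 27 held 1 library far from the others by Dixon's ratio. Chance alone gives 1 in 20 groups where values are normally distributed and groups are independent. These groups share libraries, and the list sums share genes with the genes named, so 27 cannot be judged against that rate. The PFC library of m4329 stood apart for Vip (39.9 cpm) and Cnr1 (196 cpm). The PFC library of m4394 stood apart for Drd2 (19.5 cpm), Ttr (42.5 cpm), Ido1 (2.07 cpm), Cd4 (8.58 cpm) and Gpx6 (4.27 cpm). The PFC library of m4609 stood apart for Prdm8 (33.4 cpm). The STR library of m4326 stood apart for Aldh1a3 (0.546 cpm) and Cdhr1 (40.3 cpm). The STR library of m4394 stood apart for Gpx6 (70.0 cpm). The STR library of m4545 stood apart for Slc18a3 (19.6 cpm). The STR library of m4609 stood apart for Cux2 (18.1 cpm), Dlx6 (36.2 cpm), Gabbr2 (84.6 cpm), Chrna4 (19 cpm) and Flt1 (33.6 cpm). The STR library of m4612 stood apart for Adcy5 (972 cpm) and Gad2 (576 cpm). Among summed lists, m4329 stood apart in PFC for the striosome and matrix genes (1172 cpm) and the septum and hypothalamus genes (48 cpm). Among summed lists, m4394 stood apart in PFC for the ependyma genes (18 cpm) and the choroid plexus genes (53.9 cpm). Among summed lists, m4396 stood apart in PFC for the retinoid signalling genes (255 cpm). Among summed lists, m4326 stood apart in STR for the olfactory bulb genes (70.8 cpm). Among summed lists, m4394 stood apart in STR for the oligodendrocyte genes (13583 cpm). Among summed lists, m4609 stood apart in STR for the endothelium genes (196 cpm).

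The STR minus PFC difference itself differed between wt/wt mice of the Nestin-Cre and AAV-Cre models for 66 of 112 genes given a value in the text, by the interaction test at an adjusted p under 0.1, which 31.3% of all genes passed; 6 of the 66 were named for the size of this change. The log2 change, Nestin-Cre minus AAV-Cre, is in parentheses. It was positive for Adora2a (1.26), Bdnf (2.34), C1qa (0.38), Cck (1.62), Cd4 (1.32), Chat (1.28), Clec12a (1.78) and Cnr1 (0.58). Also positive were Crabp1 (1.25), Dlx6 (0.97), Drd1 (0.71), Drd2 (1.12), Foxp2 (0.43), Gabrd (0.38), Gfra1 (0.41) and Gng7 (0.73). Also positive were Gpr52 (0.49), Gpr6 (1.37), Htr1d (0.76), Ido1 (1.79), Isl1 (1.49), Lhx8 (1.45), Lrrc10b (0.93) and Meis2 (0.36). Also positive were Neurod2 (1.86), Neurod6 (2.41), Nexn (0.74), Npy (0.59), Nr4a2 (3.18), Oprk1 (0.72), Penk (1.35) and Ppp1r1b (1.02). Also positive were Rarb (0.92), Rgs9 (0.79), Rxrg (0.99), Sh3rf2 (1.15), Six3 (1.01), Slc17a7 (1.80), Slc18a3 (1.01) and Slc30a3 (1.39). Also positive were Slc35d3 (0.85), Slc5a7 (1.01), Sst (0.55), Tac1 (1.10), Tacr1 (0.56), Tbr1 (1.61), Vip (1.00) and Zfp503 (1.33). It was negative for 1500015O10Rik (-2.77), Adra1d (-2.34), Cdhr1 (-1.36), Chrna4 (-1.0), Cux2 (-0.44), F5 (-3.14), Flt1 (-1.08) and Folr1 (-3.03). Also negative were Gabbr2 (-0.54), Gfap (-1.14), Htr2a (-0.77), Mbp (-0.37), Myoc (-1.11), Ntrk2 (-0.32), Rasgrf2 (-0.44) and Ret (-1.57). Also negative were Slc4a5 (-3.93) and Sostdc1 (-2.80). Age, injection, model and any batch cannot be told apart here, and the cause was not tested.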

How the results depend on the processing

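For the region difference, 103 of 107 genes given a value in the text kept their direction and their side of the threshold under all alternatives run, the exceptions being Npy, Ret, Th and Nr4a2. Without the mouse block, 10048 genes were called (5020 higher in STR, 5028 higher in PFC), against 10024 with it. The counts of genes at least 4-fold higher were 478 in STR and 587 in PFC without the filter on low counts, where more genes were tested, and 157 in STR and 216 in PFC by a test against a 4-fold change (glmTreat), which asks for more than the fitted value alone. The Th difference turned negative without the block (-0.14), without the block and with the PFC library of m4575 (-0.31), and without the block and the STR libraries of m4326 and m4609 (-0.11). It stayed positive and called without the block and the PFC libraries of m4329, m4396 and m4612. The cause was not tested. Leaving out 1 of the 5 mice with both regions at a time gave Npy differences from -0.060 to 0.17, and the cause was not tested. Leaving out 1 mouse also gave 9081 to 9903 called genes, 4543 to 5061 higher in STR, 4522 to 4930 higher in PFC, 257 to 268 at least 4-fold higher in STR and 369 to 398 at least 4-fold higher in PFC. The model by region interaction was called for 3661 to 5050 genes when 1 of these 5 mice was left out; no AAV-Cre mouse was left out. DESeq2 called 9147 genes and limma-voom 10600. The interaction calls of Slc4a5, Folr1, Sostdc1 and 1500015O10Rik were lost with DESeq2 (-1.40, -1.16, -1.78 and -1.53), that of Slc4a5 also without the block (-4.41, adjusted p = 0.24, against -3.93); the cause was not tested. Depth limits the genes near 1 cpm, where 1 cpm was 15.2 to 25.9 counts in PFC before scaling by TMM.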
